A study of Mus musculus with 12 samples.

Results

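NF-kappaB genes were followed in a mouse model in which culture supernatant was passed between tumour cells and stellate cells. The 10 genes were chosen by name: the transcription factor subunits Nfkb1, Nfkb2, Rela and Relb, the inhibitors and feedback regulators Nfkbia, Nfkbiz and Tnfaip3, and the targets Birc3, Tnf and Icam1. Symbols were matched to the Ensembl identifiers of the count tables, and the 10 genes stand among 17335 identifiers in both tables together. KPC4 had a row for all 10 (of 15309), and PSC4 for 9 (of 16386), so that Tnf was not analysed there. The 9 and 10 genes all passed the filter on low counts in their line, Tnf in KPC4 and Icam1 in PSC4 through the Gem libraries, in which they were higher (0 and 2 of the 3 control libraries reached the minimum level of the filter).

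PSC4 is a line of murine pancreatic stellate cells, the stromal cells that can become fibroblasts, and KPC4 is a line of murine pancreatic cancer cells. The 4 groups held 3 biological replicates each. PSC4 cells stayed for 24 h in supernatant of KPC4 cells that had received vehicle (Control-SU) or 10 µM of the nucleoside analogue gemcitabine (Gem-SU) for 6 h, been washed, and conditioned starvation medium for 14 h. For the second step, PSC4 cells were first given either supernatant for 6 h and, after a wash, conditioned fresh starvation medium for 18 h, which became Control-PSC-SU or Gem-PSC-SU, and new KPC4 cells were kept in it for 24 h. Each cell type is thus represented by 1 line. Culture medium for both lines held 10% fetal bovine serum. The labels call the 3 samples of a group biological replicates and say no more of how they were made.

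NF-kappaB is a family of dimeric transcription factors held in the cytoplasm by inhibitors of the IkappaB family. In the canonical pathway, receptors such as those for TNF and IL-1 activate a kinase complex that marks IkappaB alpha, the product of Nfkbia, for degradation, and dimers of p50 and RelA enter the nucleus. In the non-canonical pathway, the kinase NIK (Map3k14) leads to processing of the Nfkb2 product p100 and to dimers of p52 and RelB. Many targets are themselves inhibitors, above all Nfkbia and Tnfaip3, so that the pathway shuts itself off. In pancreatic tumours it is known for inflammatory signalling between cancer cells and stroma.

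Several of these genes are known as targets of the factors they regulate, and the promoters of 3 of them, in which a match to the NF-kappaB motif was found, are shown for that reason. RefSeq promoter entries on GRCm38.p6 were matched by symbol for 7 of the 10 genes, leaving Nfkb1, Relb and Nfkbiz, and the NF-kappaB consensus motif was searched on both strands in the 250 bases before each start. At least 1 entry of Nfkb2, Nfkbia and Tnfaip3 held it, and the entries of Rela, Birc3, Tnf and Icam1 did not hold these letters in this window. Counted by entry, 5 of the 10 entries of these 7 genes held it, against 3.90% of all 32851 promoter entries. All 3 entries of Nfkb2 were among the 5, so that this share rests largely on the alternative starts of 1 gene. Tnfaip3 held it in 1 of 2 entries. By gene it was 3 of 7, for which no share over all promoters was computed. The sequences run 5′ to 3′ on the strand of the gene and end at the base before the start, with capitals for the bases of a match.
Nfkbia, chr12:55492648-55492897, - strand: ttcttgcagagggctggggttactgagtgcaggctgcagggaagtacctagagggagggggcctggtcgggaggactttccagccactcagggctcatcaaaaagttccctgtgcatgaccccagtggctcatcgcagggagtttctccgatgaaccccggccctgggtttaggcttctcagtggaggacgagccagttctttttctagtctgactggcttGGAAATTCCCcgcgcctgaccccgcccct
Tnfaip3, chr10:19015411-19015660, - strand: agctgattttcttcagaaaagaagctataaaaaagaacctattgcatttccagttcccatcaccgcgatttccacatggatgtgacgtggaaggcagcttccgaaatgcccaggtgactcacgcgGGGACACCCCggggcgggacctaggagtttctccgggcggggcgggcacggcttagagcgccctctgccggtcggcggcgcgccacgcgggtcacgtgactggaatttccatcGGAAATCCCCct
Nfkb2, chr19:46304487-46304736, + strand: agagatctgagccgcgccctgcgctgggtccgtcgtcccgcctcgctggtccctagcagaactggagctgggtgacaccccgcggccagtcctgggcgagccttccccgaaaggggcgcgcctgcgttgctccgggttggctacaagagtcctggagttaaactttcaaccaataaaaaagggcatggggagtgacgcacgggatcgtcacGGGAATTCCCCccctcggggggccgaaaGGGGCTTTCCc

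In Nfkbia the match GGAAATTCCC began 29 bases before the start and read as the consensus on the opposite strand. Tnfaip3 held GGAAATCCCC at 12 bases, again on the opposite strand, and GGGACACCCC at 125 bases before the start. In Nfkb2, for which the most upstream of 3 entries is shown, GGGAATTCCC at 39 bases matched on both strands and overlapped a further match that began 1 base later, and GGGGCTTTCC began 11 bases before the start. A match describes letters and is no measurement of binding.

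The 12 libraries held between 26354328 and 38138356 counts. Levels are given as CPM (counts scaled to a library total of 1000000), corrected by TMM factors for RNA composition over all 12 libraries, so that 1 gene can be compared across all groups. They are not scaled to gene length and are not compared between genes. The labelled cell types were checked against marker genes. In PSC4 the fibroblast collagen Col1a1 lay between 1402 and 3787 CPM, and in KPC4 the epithelial keratin Krt8 lay between 2364 and 3343 CPM. Des, a defining stellate cell marker, reached at most 4.18 CPM in PSC4, and Epcam at most 15.5 CPM in KPC4. The summed level of the stellate and fibroblast markers with a row in PSC4 (10 of 11) was 8099 to 8773 CPM with Control-SU and 2384 to 3558 CPM with Gem-SU, and its part in the results was not tested. In KPC4 6 of the 11 had a row, summing to 2464 to 2808 CPM with Control-PSC-SU and 1828 to 2271 CPM with Gem-PSC-SU. This sum overlapped that of Gem-SU PSC4. Most of it was Vim, at 1811 to 2775 CPM, while Col1a1 reached at most 11.1 CPM in KPC4. Leukocyte markers, which matter here because leukocytes are a classical source of Tnf, had a row for 5 of 9 genes in PSC4, summing to 19.5 to 27.9 CPM with Control-SU and 13.3 to 15.7 CPM with Gem-SU. In KPC4 they had a row for 4 of 9 genes, summing to 63.9 to 79.7 CPM with Control-PSC-SU and 31.6 to 54.8 CPM with Gem-PSC-SU, most of it Cd14, while the pan-leukocyte marker Ptprc reached at most 0.981 CPM. Among the KPC4 libraries, Gem-PSC-SU replicate 1 was the lowest Gem-PSC-SU library for 8 of the 10 genes. KPC4 results are therefore given with and without it. The choice was made on the values of these same genes, so that calls without this library are no independent support.

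In PSC4, the first comparison asked how NF-kappaB genes in stellate cells differ between Gem-SU and Control-SU. Of the 9 genes tested, 6 rose with Gem-SU (Nfkb2, Rela, Relb, Nfkbia, Tnfaip3 and Icam1), 2 fell (Nfkbiz and Birc3), and Nfkb1 did not pass an adjusted p of 0.05 in edgeR's quasi-likelihood test. Over all genes tested 24.3% rose and 22.0% fell, 46.3% together. The median log2 fold change was 1.07 for the 9 genes and 0.00 for all genes tested. For each of the 9 genes the 3 libraries of one group lay above all 3 of the other, as they did for 56.7% of all genes. Icam1 had passed the filter on low counts through the Gem-SU libraries, in which it was higher. Its part in the counts and the median of this paragraph is no support. In RNA from whole cultures, more cells with a transcript and more transcript per cell cannot be told apart.

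Among the factors, Rela encodes the main activating subunit of the canonical pathway. Its level was 107, 83.4 and 93.7 CPM in Control-SU replicates 1, 2 and 3, and 241, 216 and 172 CPM in Gem-SU replicates 1, 2 and 3. The lowest Gem-SU library lay well above the highest control. The log2 fold change was 1.19 with a standard error (SE) of 0.17 (edgeR, adjusted p = 9.22e-04).

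Relb and Nfkb2 encode the subunits of the non-canonical dimer. Relb stood at 41.6, 32.8 and 35.3 CPM in the controls and at 82.6, 71.9 and 68.2 CPM with Gem-SU, a log2 fold change of 1.07 (SE 0.15, edgeR adjusted p = 8.89e-04). Nfkb2 stood at 225, 148 and 229 CPM and at 377, 395 and 346 CPM, a log2 fold change of 0.94 (SE 0.19, edgeR adjusted p = 0.00464). In both genes the groups did not overlap, and the control spread of Nfkb2 came from replicate 2, which was the lowest control.

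Nfkb1, whose product p105 is processed to the canonical partner p50, had the smallest log2 fold change of the 9. It was at 122, 117 and 111 CPM in the controls and at 146, 145 and 136 CPM with Gem-SU. All Gem-SU libraries lay above the controls, but the log2 fold change of 0.34 (SE 0.13) had an adjusted p of 0.0578 in edgeR. It fell under 0.05 in DESeq2, with an adjusted p of 0.0409, so that DESeq2 called all 9 genes, against 43.7% of all its genes.

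Of the 3 feedback genes 2 rose and 1 fell. Tnfaip3 encodes A20, a ubiquitin-editing enzyme that ends signalling from TNF and Toll-like receptors. It was at 19.8, 16.8 and 21.2 CPM in the controls and at 84.9, 99.7 and 92.3 CPM with Gem-SU, a log2 fold change of 2.31 (SE 0.15, edgeR adjusted p = 4.04e-05). Each Gem-SU library held between 4.40 and 5.17 times the control mean, a narrow range.

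Nfkbia, the gene of IkappaB alpha, was at 55.5, 44.0 and 52.4 CPM in the controls and at 181, 212 and 196 CPM with Gem-SU. Its log2 fold change was 2.00 (SE 0.15, edgeR adjusted p = 5.99e-05), and each Gem-SU library held 3.58 to 4.19 times the control mean. The genes of both inhibitors thus had Gem-SU libraries close to each other and far from the controls.

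Nfkbiz went the other way. It encodes IkappaB zeta, a nuclear member of the IkappaB family that acts with p50 on a subset of targets. Its level was 35.0, 51.2 and 49.5 CPM in the controls and 21.2, 24.4 and 24.1 CPM with Gem-SU, a log2 fold change of -0.92 (SE 0.19, edgeR adjusted p = 0.00439). Control replicate 1 was the closest to the Gem-SU libraries, still above all of them.

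Among the targets, Birc3 encodes cIAP2, a ubiquitin ligase that protects from TNF-induced death and holds back the non-canonical pathway. It was at 33.6, 36.4 and 34.7 CPM in the controls and at 22.3, 23.2 and 25.5 CPM with Gem-SU, a log2 fold change of -0.51 (SE 0.15, edgeR adjusted p = 0.0208). Without Control-SU replicate 3 its adjusted p was 0.0561, and without Gem-SU replicate 2 it was 0.0941.

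Icam1 encodes an adhesion molecule that leukocytes bind. In PSC4 it was barely present, with 13, 11 and 4 counts in the controls (0.380, 0.346 and 0.131 CPM) and 75, 66 and 29 counts with Gem-SU (1.89, 1.94 and 0.954 CPM). It rose by 2.50 on the log2 scale (SE 0.56, edgeR adjusted p = 0.00695), and the groups did not overlap. The level it reached in PSC4 stayed far below that in any KPC4 library, the lowest of which held 31.2 CPM.

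**Figure D1:**
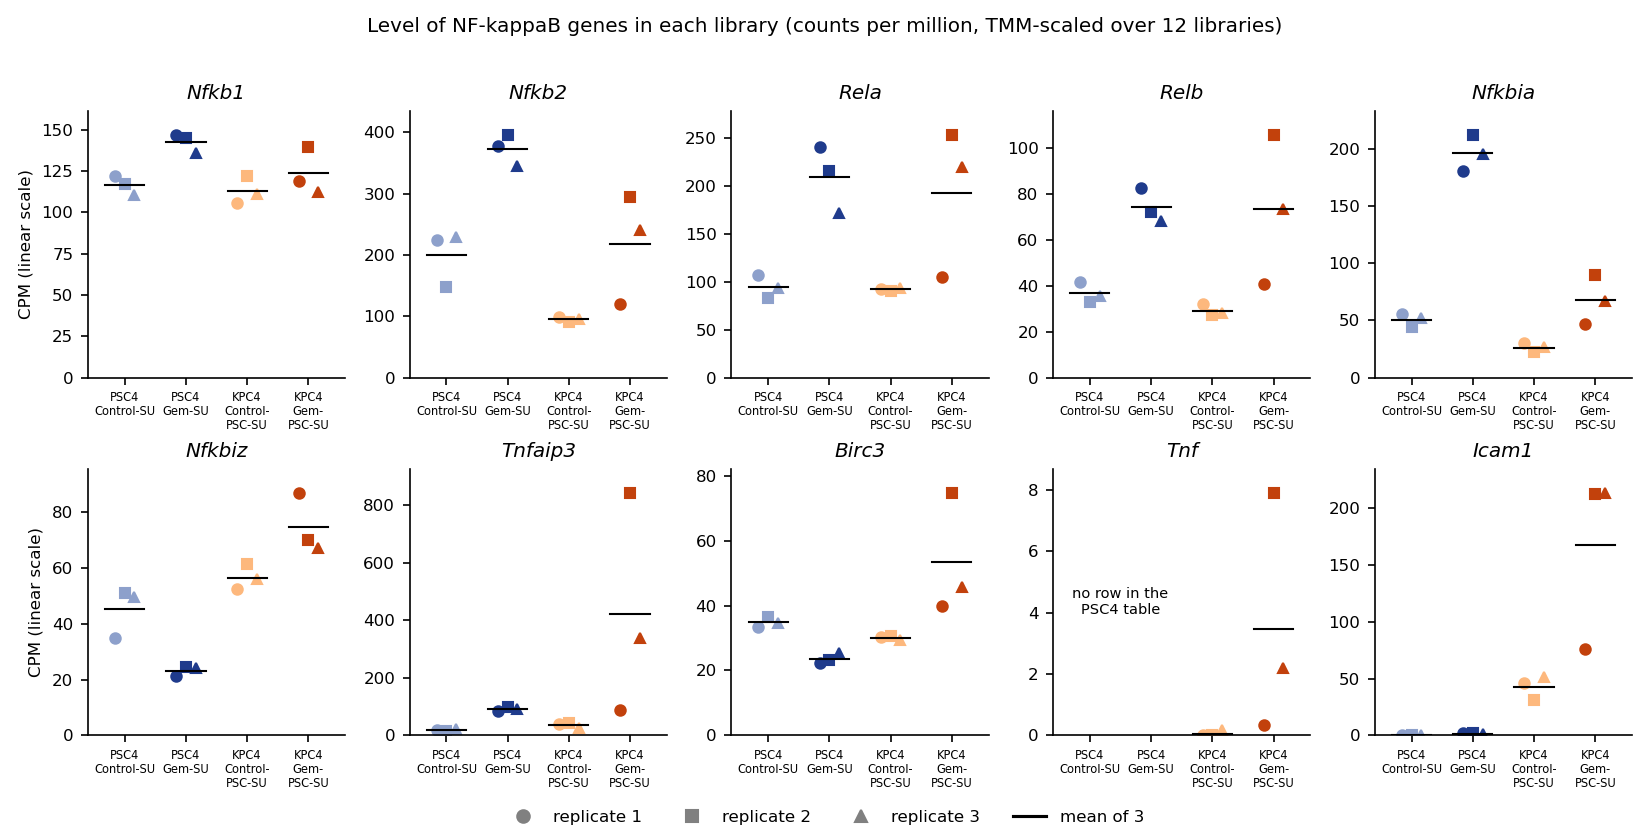
Level of each gene in every library, in CPM on a linear axis starting at 0 that differs between panels, for PSC4 (blue) and KPC4 (orange), with Control groups light and Gem groups dark. Marker shapes give the replicate and black lines the mean of 3 libraries, and the spread of the KPC4 Gem-PSC-SU libraries, such as 86.7 to 841 CPM for Tnfaip3, exceeds that of the PSC4 Gem-SU libraries, 84.9 to 99.7 CPM.

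In KPC4, the second comparison asked how the same genes in tumour cells differ between Gem-PSC-SU and Control-PSC-SU. All 10 genes had a higher mean with Gem-PSC-SU, and for 9 of them, all but Nfkb1, every Gem-PSC-SU library lay above every control. Over all genes tested 12.2% lay higher without overlap. The median log2 fold change was 1.27 for the 10 genes and -0.02 for all genes tested. None of the 10 genes passed an adjusted p of 0.05 in edgeR's quasi-likelihood test, nor did any other gene (0.00% of 13236), while 8 had an unadjusted p under 0.05, as did 17.0% of all genes. DESeq2 put 6 under an adjusted p of 0.05, all of them higher (Nfkb2, Rela, Relb, Nfkbia, Tnfaip3 and Icam1), against 5.11% of all its genes called higher and 5.95% in either direction. With the replicate number as a block, a pairing inferred from the counts with no label behind it, edgeR put 2 under an adjusted p of 0.05. They were Nfkbia (adjusted p = 0.0292) and Tnf (adjusted p = 0.0246), against 6.07% of all genes called higher and 8.85% in either direction. Tnf had passed the filter on low counts through the Gem-PSC-SU libraries alone. It thus had to be higher, and its part in the counts of this paragraph is no support.

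The edgeR count of 0 did not hold in every fit. It became 2 with the replicate block, as given above, and 7 when all 12 libraries were fitted together, where 610 of all 13632 genes were called. It also changed with the libraries used. Gem-PSC-SU replicate 1 was the lowest Gem-PSC-SU library for 8 of the 10 genes, and for 37.9% of all genes tested. Replicate 2 was the highest for 8 of the 10, and for 36.4% of all genes tested. Without replicate 1, edgeR put 8 of the 10 genes under an adjusted p of 0.05, all of them higher, and Nfkb1 and Nfkbiz did not pass. Over all genes, 6.31% were called higher and 8.30% in either direction. The 8 include Tnf, which had to be higher, and the library was picked on the values of these same genes. Leaving out any other KPC4 library left 0 of the 10.

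Tnfaip3 varied widely among the Gem-PSC-SU libraries. It stood at 40.7, 41.5 and 27.4 CPM in Control-PSC-SU replicates 1, 2 and 3, and at 86.7, 841 and 339.6 CPM in Gem-PSC-SU replicates 1, 2 and 3. These are 2.38, 23.0 and 9.30 times the control mean, so that the 3 Gem-PSC-SU libraries differ among themselves more than the lowest of them differs from the controls. The log2 fold change was 3.55 (SE 0.70, edgeR adjusted p = 0.115), and 4.03 without replicate 1 (edgeR adjusted p = 0.00260). Without replicate 2, the highest library, it was 2.53 (edgeR adjusted p = 0.256).

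Nfkbia was at 29.8, 21.9 and 26.3 CPM in the controls and at 47.2, 90.1 and 67.3 CPM with Gem-PSC-SU. No Gem-PSC-SU library overlapped the controls. The log2 fold change was 1.39 (SE 0.27, edgeR adjusted p = 0.112) and, with the replicate block, 1.35 (SE 0.27, edgeR adjusted p = 0.0292). Without Gem-PSC-SU replicate 1 it was 1.61 (edgeR adjusted p = 0.00787).

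Nfkbiz stood out from the other feedback genes in which library was highest. It was at 52.3, 61.4 and 55.9 CPM in the controls and at 86.7, 70.0 and 67.1 CPM with Gem-PSC-SU, so that replicate 1, the lowest for 8 of the other genes, was here the highest. The log2 fold change was 0.40 (SE 0.18, edgeR adjusted p = 0.298), and 0.28 without replicate 1 (edgeR adjusted p = 0.30).

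Among the factors, Relb was at 32.1, 27.3 and 27.9 CPM in the controls and at 40.8, 105 and 73.3 CPM with Gem-PSC-SU (log2 fold change 1.33, SE 0.33, edgeR adjusted p = 0.125). Nfkb2 was at 98.3, 91.2 and 95.7 CPM and at 119, 294 and 241 CPM (log2 fold change 1.20, SE 0.31, edgeR adjusted p = 0.138). Rela was at 93.0, 90.9 and 93.3 CPM and at 105, 253 and 219.6 CPM (log2 fold change 1.06, SE 0.30, edgeR adjusted p = 0.162). In all 3 genes replicate 1 of Gem-PSC-SU lay above the controls but closer to them than to the others, and replicates 2 and 3 held 2.38 to 3.62 times the control mean. Without replicate 1 the log2 fold changes of Relb, Nfkb2 and Rela were 1.63, 1.502 and 1.36 (edgeR adjusted p-values 0.00642, 0.00357 and 0.00433).

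Nfkb1 was at 105, 122 and 111 CPM in the controls and at 119, 139 and 112 CPM with Gem-PSC-SU. The groups overlapped, and the log2 fold change was 0.13 (SE 0.17, edgeR adjusted p = 0.722), and 0.16 without replicate 1 (edgeR adjusted p = 0.583). In neither line did this subunit pass the edgeR test.

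Icam1, unlike in PSC4, was well expressed in KPC4. It was at 45.9, 31.2 and 51.0 CPM in the controls and at 75.8, 212.6 and 213 CPM with Gem-PSC-SU, where replicates 2 and 3 were nearly equal. The log2 fold change was 1.97 (SE 0.40, edgeR adjusted p = 0.115), and 2.32 without replicate 1 (edgeR adjusted p = 0.00189).

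Birc3 was at 30.4, 30.6 and 29.4 CPM in the controls and at 39.8, 74.6 and 45.8 CPM with Gem-PSC-SU. The control libraries lay close together, and the log2 fold change was 0.83 (SE 0.26, edgeR adjusted p = 0.184), and 1.01 without replicate 1 (edgeR adjusted p = 0.0384). Without replicate 2, the highest library, it was 0.49 (edgeR adjusted p = 0.409).

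Tnf, the cytokine that both activates the pathway and is its target, was close to the limit of counting in KPC4 controls. The 3 control libraries held 0, 0 and 5 counts, and the Gem-PSC-SU libraries held 9, 257 and 57 counts, or 0.330, 7.88 and 2.19 CPM. The groups did not overlap, and replicate 1 lay nearer to the controls than to the remaining Gem-PSC-SU libraries. The fitted log2 fold change of 5.95 (SE 1.44, edgeR adjusted p = 0.124) rests on 5 control counts in 1 library. It moves between 5.36 and 9.76 in the 5 fits without 1 library that gave a value. Without Gem-PSC-SU replicate 2, which held the 257 counts, Tnf gave no value. Without Gem-PSC-SU replicate 1 the log2 fold change was 6.497 (edgeR adjusted p = 0.0184). In the authors' deposited table its log2 fold change was 5.78 with an adjusted p of 0.0752.

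The authors' deposited tables, named as DESeq2 output, list 6 of the 10 genes with an adjusted p under 0.05 in KPC4, all higher, where 5.17% of the listed genes with an adjusted p pass. In PSC4 the authors' deposited table lists 6 higher and 2 lower of 9, where 42.9% pass. For Icam1 in KPC4 the authors' deposited table gives a log2 fold change of 1.95 with an adjusted p of 1.52e-04, and for Nfkbia 1.36 with 8.60e-04. For Birc3 in PSC4 the authors' deposited table gives -0.81 with an adjusted p of 0.00784. This is a larger fall than in edgeR (-0.51) or in DESeq2 run here on the deposited counts (-0.52). For Birc3 in KPC4 the authors' deposited table gives 0.57 with an adjusted p of 0.190, against 0.83 in edgeR. The source of these gaps was not tested.

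**Figure D2:**
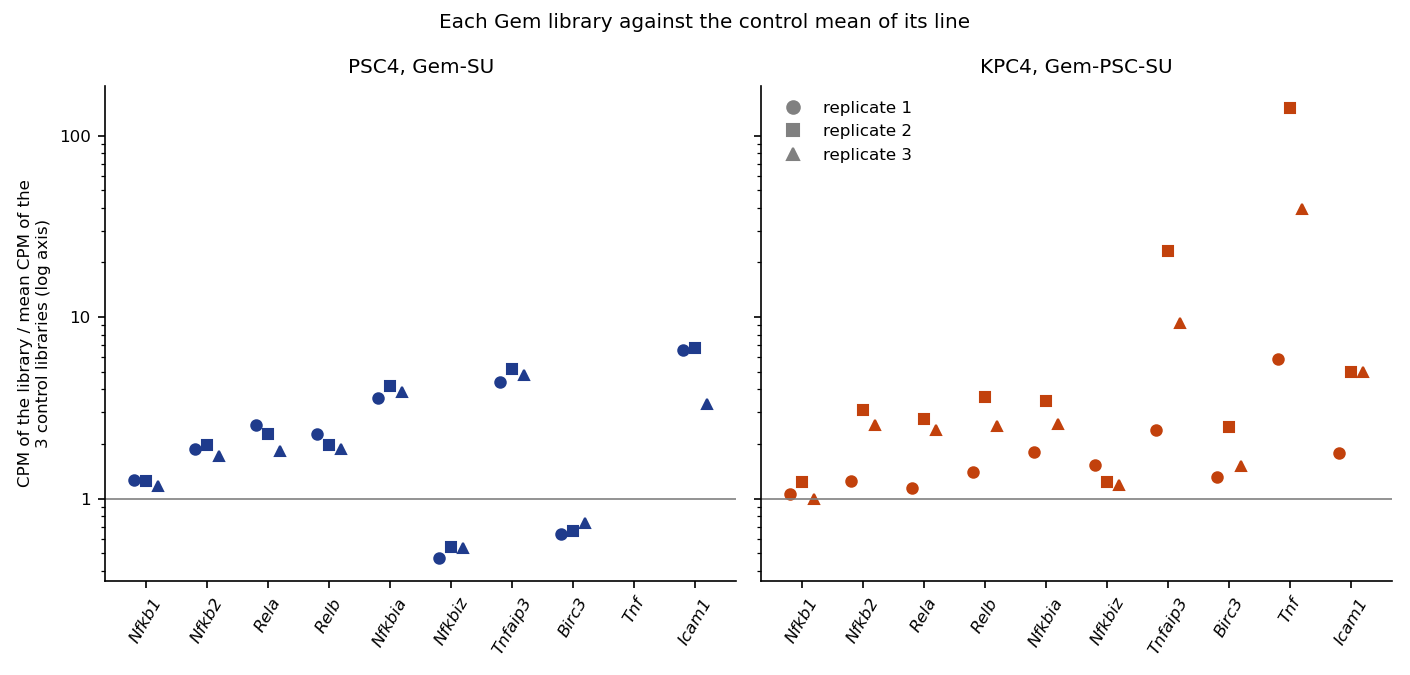
CPM of each Gem library divided by the mean of the 3 control libraries of its line, on a log axis, for PSC4 with Gem-SU (left) and KPC4 with Gem-PSC-SU (right), with marker shapes for the replicate. In PSC4 the 3 libraries lie close together for Nfkbia (3.58 to 4.19) and Tnfaip3 (4.40 to 5.17), while in KPC4 replicate 1 lies below the others for 8 of 10 genes, as for Tnfaip3 (2.38 against 9.30 and 23.0).

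The difference between the lines was then tested as an interaction in a fit of all 12 libraries, for the 9 genes present in both tables. It passed for 2 of them, Nfkbiz and Birc3, and over all genes tested for 9.85%, with 5.10% more negative in PSC4. Both had fallen in PSC4 and lay above the controls in KPC4. The change of Nfkbiz in PSC4 minus that in KPC4 was -1.36 on the log2 scale (SE 0.26, edgeR adjusted p = 0.00618), and that of Birc3 was -1.39 (SE 0.30, edgeR adjusted p = 0.0125). Both also passed in each of the 12 fits that left out 1 library, with adjusted p-values of at most 0.0223 and 0.0392 in edgeR.

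For the other 7 genes a difference between the lines was not detected. It was -1.27 for Tnfaip3 (SE 0.73, edgeR adjusted p = 0.299), -1.78 without Gem-PSC-SU replicate 1 of KPC4 (edgeR adjusted p = 0.0195) and -0.29 without Gem-PSC-SU replicate 2. For Nfkbia it was 0.56 (SE 0.30, edgeR adjusted p = 0.266) and for Icam1 0.49 (SE 0.63, edgeR adjusted p = 0.668). The differences of the 4 factors lay between -0.31 for Relb and 0.16 for Nfkb1, with standard errors from 0.20 to 0.38. Both lines received different supernatants, so that the cell line and the step of the transfer cannot be told apart as its source.

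**Figure D3:**
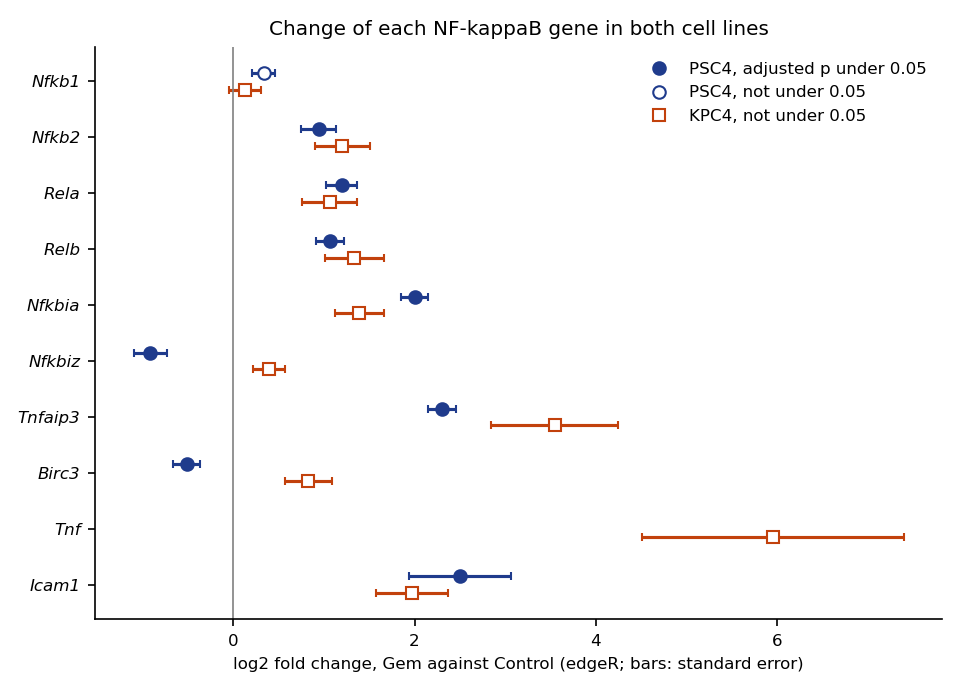
Log2 fold change of each gene, Gem against Control, from edgeR in PSC4 (blue circles) and KPC4 (orange squares), with bars for the standard error and filled symbols for an adjusted p under 0.05. Nfkbiz and Birc3 lie below 0 in PSC4 (-0.92 and -0.51) and above 0 in KPC4 (0.40 and 0.83).

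Set side by side, the levels of each gene put the 4 groups in different orders. For Nfkbia the order from low to high was Control-PSC-SU KPC4 (26.02 CPM ± 3.97), Control-SU PSC4 (50.6 CPM ± 5.95), Gem-PSC-SU KPC4 (68.2 CPM ± 21.5) and Gem-SU PSC4 (196 CPM ± 15.4, SD, n = 3 each). Of these neighbours, only Control-SU PSC4 and Gem-PSC-SU KPC4 overlapped in their libraries. For Tnfaip3 it was Control-SU PSC4 (19.3 CPM ± 2.27), Control-PSC-SU KPC4 (36.5 CPM ± 7.91), Gem-SU PSC4 (92.3 CPM ± 7.40) and Gem-PSC-SU KPC4 (423 CPM ± 384, SD, n = 3 each), and the last 2 overlapped. The controls of KPC4 thus held more Tnfaip3 and less Nfkbia than those of PSC4.

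Birc3 and Nfkbiz were lowest in Gem-SU PSC4 (23.7 CPM ± 1.67 and 23.2 CPM ± 1.76) and highest in Gem-PSC-SU KPC4 (53.4 CPM ± 18.6 and 74.6 CPM ± 10.6, SD, n = 3 each), with no overlap between neighbouring groups. Between these extremes the 2 control groups came in opposite orders, Birc3 being higher in PSC4 (34.9 CPM ± 1.41 against 30.1 CPM ± 0.644) and Nfkbiz higher in KPC4 (56.5 CPM ± 4.56 against 45.2 CPM ± 8.90, SD, n = 3 each). For Rela all neighbouring groups overlapped, the controls of both lines standing at 92.4 CPM ± 1.32 (KPC4) and 94.8 CPM ± 12.05 (PSC4) and the Gem groups at 193 CPM ± 77.6 and 210 CPM ± 34.9 (SD, n = 3 each). For Nfkb1 the group means ran from 113 to 142 CPM and all neighbours overlapped. Nfkb2 was lowest in KPC4 controls (95.0 CPM ± 3.62) and highest in Gem-SU PSC4 (373 CPM ± 24.9, SD, n = 3 each), while Control-SU PSC4 and Gem-PSC-SU KPC4 overlapped between them.

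The wider pathway was described with a list of 84 further genes, of which 72 were tested in PSC4 and 73 in KPC4. In PSC4 23 of the 72 rose and 17 fell, shares not far from those of all genes given above (24.3% and 22.0%), with a median log2 fold change of 0.16. In KPC4 0 of the 73 passed in edgeR, with a median of 0.44 and 32 at an unadjusted p under 0.05, against 17.0% of all genes. With the replicate block 13 of the 73 were called higher and 1 lower in KPC4, where 6.07% of all genes were called higher and 8.85% in either direction. The 13 include the target genes Cxcl2, Csf2 and Fas, which passed the filter on low counts through the Gem-PSC-SU libraries, so that their part is no support. DESeq2 called 25 of 76 higher, against 5.11% of all its genes, and the 25 include the same genes and Il6, which had 0 CPM in the KPC4 controls. Without Gem-PSC-SU replicate 1 edgeR called 26, against 6.31% of all genes called higher and 8.30% in either direction. All 26 had a higher mean with Gem-PSC-SU over all libraries. Among the 26 are Cxcl2, Csf2, Il6 and the further target gene Sele, and the part of these is no support. Il6 and Sele (control mean 0.0335 CPM) were not tested in edgeR with all KPC4 libraries. The library was picked on the values of the NF-kappaB genes chosen by name, so that this count is no independent support.

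Of the 4 further Rel and IkappaB genes tested in PSC4, 3 rose and 1 fell, where 24.3% of all genes rose and 22.0% fell. Rel, the c-Rel subunit, went from 37.4 CPM ± 4.05 to 90.3 CPM ± 24.0 (SD, n = 3 each), and Nfkbie and Nfkbib, genes of cytoplasmic inhibitors like IkappaB alpha, rose by 1.23 and 0.85 on the log2 scale. Bcl3, a nuclear IkappaB protein like the product of Nfkbiz, fell by 0.94 on the log2 scale. In KPC4 none of the 5 passed in edgeR with all libraries, and Bcl3 had a log2 fold change of 1.18 (adjusted p = 0.162, and 0.00432 without Gem-PSC-SU replicate 1).

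Among the 10 genes of kinases and of their scaffold and adaptors, 3 rose and 1 fell in PSC4, where 24.3% of all genes rose and 22.0% fell. Map3k14, the gene of NIK, went from 48.4 CPM ± 13.0 to 141 CPM ± 9.23 (SD, n = 3 each), Chuk, the gene of the kinase IKK alpha, rose by 1.21 on the log2 scale, and Tab3, an adaptor of the kinase TAK1, by 1.54 on the log2 scale. Tab1, another TAK1 adaptor, fell by 0.64. Ikbkb and Ikbkg, the genes of IKK beta and of the scaffold NEMO, had log2 fold changes of -0.32 and -0.34 and did not pass. In KPC4 Map3k14 stood at 7.06 CPM ± 0.717 and 29.5 CPM ± 14.8 (SD, n = 3 each), with an edgeR adjusted p of 0.112. It passed with the replicate block (edgeR adjusted p = 0.00942), in DESeq2 (adjusted p = 2.99e-05) and without Gem-PSC-SU replicate 1 (edgeR adjusted p = 0.00167).

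Of the 11 receptor genes tested in PSC4, 6 fell, 2 rose and 3 did not pass, beside 22.0% falling and 24.3% rising among all genes. Tnfrsf11a, the receptor RANK, had a log2 fold change of -1.80, Tlr4, the receptor for lipopolysaccharide, of -1.46, and Il1r1, the IL-1 receptor, of -0.98 (edgeR adjusted p-values 3.09e-04, 7.87e-04 and 0.00158). Tnfrsf1a, the main TNF receptor, went from 186.5 CPM ± 21.9 to 109 CPM ± 15.8 (SD, n = 3 each). Tnfrsf12a, the receptor of TWEAK, had the larger fold change of the 2 that rose, with 44.6 CPM ± 35.3 under Control-SU and 429 CPM ± 116 under Gem-SU (SD, n = 3 each). In KPC4 Tlr4 and Tlr2 were among the 5 lower genes with the smallest p, at -0.39 and -0.48 on the log2 scale, and did not pass.

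Of the 16 adaptor and ubiquitin ligase genes 2 rose and 5 fell in PSC4, where 24.3% of all genes rose and 22.0% fell. Traf1, an adaptor of TNF receptors, went from 1.60 CPM ± 1.08 to 26.7 CPM ± 2.46 (SD, n = 3 each). Irak4, which carries signals of IL-1 and Toll-like receptors, had a log2 fold change of -1.67 (edgeR adjusted p = 5.76e-04). Ticam1, an adaptor of Toll-like receptors, had a log2 fold change of -1.56 (edgeR adjusted p = 5.94e-04). In KPC4 Traf1 stood at 1.27 CPM ± 0.424 and 30.1 CPM ± 23.5 (SD, n = 3 each), with an edgeR adjusted p of 0.112, and of 0.119 with the replicate block. Irak4, at -0.58 on the log2 scale in KPC4, was the 1 pathway gene called lower there with the replicate block (edgeR adjusted p = 0.0493). Rbck1, a subunit of the linear ubiquitin ligase, was at -0.32 in KPC4 and did not pass.

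Further negative regulators were mixed, with 3 of 9 higher and 1 lower in PSC4, where 24.3% of all genes rose and 22.0% fell. Tnip3, which binds A20, went from 1.01 CPM ± 0.229 to 8.87 CPM ± 2.45 in PSC4, and stood at 9.12 CPM ± 0.820 and 36.5 CPM ± 21.1 in KPC4 (SD, n = 3 each). Cyld, a deubiquitinase, rose by 0.95 on the log2 scale in PSC4.

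Of 19 further target genes tested in PSC4, 10 rose and 2 fell, where 24.3% of all genes rose and 22.0% fell. The 10 include Csf2 and Il6, which passed the filter on low counts through the Gem-SU libraries alone, so that they had to differ. Ptgs2, the prostaglandin synthase COX-2, went from 18.2 CPM ± 3.43 to 531 CPM ± 184, Gadd45b, a stress-response gene, from 27.9 CPM ± 8.37 to 216 CPM ± 63.4, and Ripk2, an adaptor kinase, from 19.2 CPM ± 1.73 to 57.9 CPM ± 4.93 (SD, n = 3 each). Vcam1, the adhesion molecule named most often beside Icam1, had a log2 fold change of -0.18 and did not pass, nor did Sod2, the mitochondrial superoxide dismutase, at -0.10. In KPC4 the higher genes with the smallest p were the chemokine genes Cxcl2 and Cxcl1, Traf1, Csf2, which encodes a myeloid growth factor, and Ptgs2. Ptgs2 stood there at 101 CPM ± 70.8 and 1520 CPM ± 1315 (SD, n = 3 each), Cxcl1 at 2.27 CPM ± 0.444 and 107 CPM ± 82.1, and Csf2 at 0.480 CPM ± 0.530 and 43.3 CPM ± 44.7. All 5 missed the threshold in edgeR (adjusted p 0.106 for Cxcl2 and Cxcl1 and 0.112 for the others). With the replicate block Cxcl2 (adjusted p = 0.00139), Csf2 (1.99e-04) and Ptgs2 (2.35e-04) passed in edgeR, and Cxcl1 (0.0560) and Traf1 (0.119) did not. Cxcl2, Csf2 and the further target gene Fas passed the filter on low counts in KPC4 through the Gem-PSC-SU libraries, in which they were higher. Bcl2l1, the survival gene Bcl-x, was at -0.49 on the log2 scale in KPC4 and did not pass, and rose by 0.76 in PSC4.

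**Figure D4:**
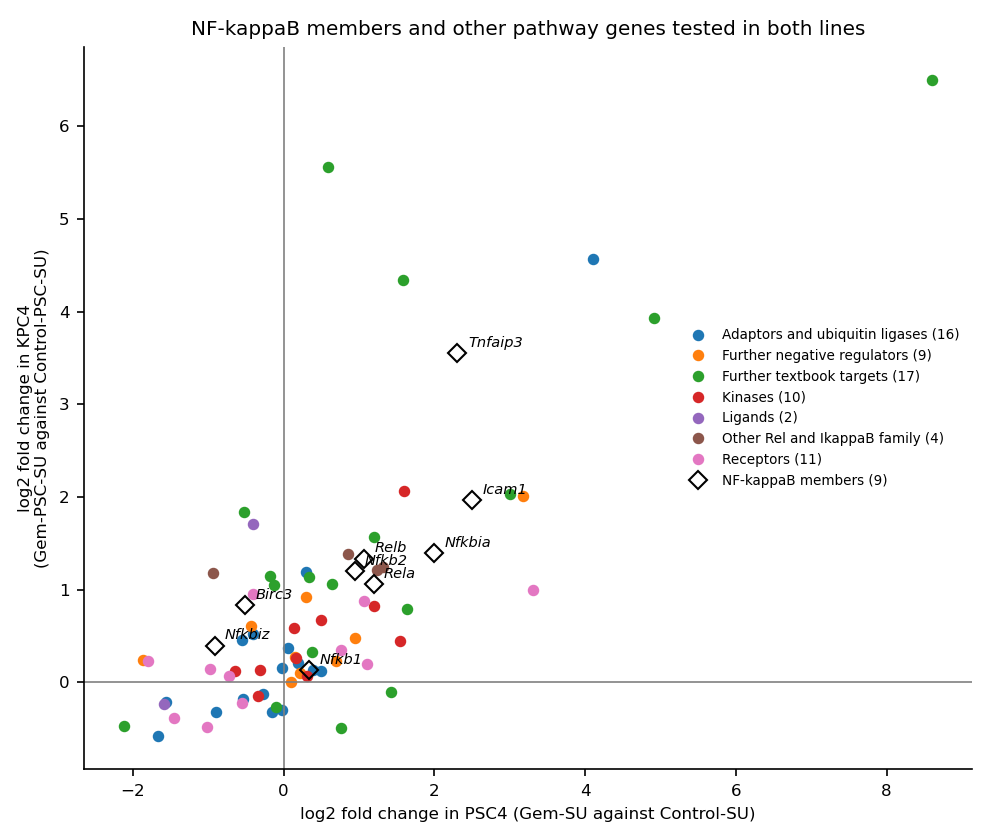
Log2 fold change in PSC4 (horizontal) against that in KPC4 (vertical) for the 69 pathway genes tested in both lines, coloured by role, and for 9 NF-kappaB genes (open diamonds, named). Of the 9 named genes 7 lie above 0 on both axes, and Nfkbiz and Birc3 lie left of 0 and above it. The point at the upper right is Csf2, whose PSC4 controls held 0 counts, so that its horizontal position depends on the prior count of the fit.

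Genes with the most similar pattern were looked for over the 12 libraries, with log2 CPM centred within each line and 13623 other genes compared. For Nfkbia the 5 genes with the highest Pearson r were Xntrpc (0.987), Fam53c (0.983), Mreg (0.982), Fosb (0.982) and Junb (0.982). For Tnfaip3 they were Lin52 and Zfp869 (both 0.988), Pip5k1a (0.986), Fam133b (0.985) and Zfp410 (0.984). For Icam1 they were Zfp36 (0.974), Sdc4 (0.969), Taf15 (0.969), Mtif3 (0.964) and Jun (0.957). The 12 points share their treatment groups and libraries, and the r-values are descriptions.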

How the data were processed

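RNA was sequenced in 12 libraries of 2 mouse cell lines. For each line the authors deposited raw counts, by gene and by library, and tables of their own comparisons with a log2 fold change and p-values per symbol. Per the submitters' processing notes, reads were handled with FastQC, Trim Galore 0.6.10, cutadapt 5.2, Salmon, R 4.5.1 and DESeq2, with GRCm39 as the build. The deposited counts are whole numbers, so that where Salmon made them they are rounded estimates. Reads shared by overlapping, antisense or near-identical genes are uncertain, because counting by strand is not given in the sources used here.

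Symbols came from GENCODE M21 and matched 99.7% of identifiers in each table. No coordinates were taken for the count tables, because that annotation is on GRCm38. Each line was fitted alone with edgeR 4.0.16 in R 4.3.3 (filterByExpr, TMM, robust quasi-likelihood, Benjamini-Hochberg over all genes tested at 0.05), and the difference between lines over 12 libraries. The tests were run on simulated counts with the same dispersion for every gene and no replicate effect. That setting lacks the spread of the KPC4 Gem-PSC-SU libraries, so that it says nothing of the tests there. Like patterns used log2 CPM with a prior count of 2. DESeq2 1.42.0 and other alternatives are in the closing section. Counting error is small at these depths except for Tnf and, in PSC4, Icam1.

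All 10 genes are named whatever their values. Of the wider pathway list the rule named, in each line, up to 5 genes in each direction with the smallest p, and the other pathway genes in the text were chosen after their values were seen. Members and lists were chosen with earlier results of these data known.

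In KPC4, libraries with the same replicate number deviated together from their groups (r = 0.366, 0.453 and 0.226, each over 0.1). They were treated as pairs on these values alone, with no label behind it. Replicates of a group differed by more than counting noise (chi-square per degree of freedom at least 32.0).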

Additional observations from a re-analysis of the deposited data

Results flagged for a closer look

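Both genes given here were picked out because the change itself was tested to differ between PSC4 and KPC4, by an interaction over 12 libraries. The log2 change in PSC4 minus that in KPC4 was -1.36 for Nfkbiz, with means of 45.2 and 23.2 CPM in PSC4 and 56.5 and 74.6 CPM in KPC4 (Control, then Gem). It was -1.39 for Birc3, with means of 34.9 and 23.7 CPM in PSC4 and 30.1 and 53.4 CPM in KPC4.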

How the results depend on the processing

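In PSC4, 7 to 9 of the 9 genes passed under all alternatives, and 7 to 8 when 1 library was left out. In PSC4 the same check did not put each r over 0.1 (r = 0.457, -0.0533 and 0.0999), although the r of replicate 1 lay above every value of KPC4. With a replicate block nonetheless, 9 genes passed there, Nfkb1 being added (edgeR adjusted p = 0.0438), as it was with plain library totals, an alternative chosen after seeing the data (0.0444). The pathway count in PSC4 lay between 30 and 43 when 1 library was left out.

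In KPC4 the count of 0 genes became 2 (replicate block), 6 (DESeq2) and 7 (all 12 libraries fitted together), and lay between 0 and 8 when 1 library was left out. The pathway count of 0 became 14, 25 and 20 under the same 3 settings and lay between 0 and 26 when 1 library was left out, being 26 when this was Gem-PSC-SU replicate 1 and 4 when it was Control-PSC-SU replicate 2. For these changes the cause was not tested. The count stayed at 0 with either filter, with size factors from DESeq2, with plain totals and without robust estimation. With the replicate block no other call among the 10 genes differed.

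The 2 differences between lines passed under all alternatives, and the count lay between 2 and 3 when 1 library was left out. Differences that did not pass changed sign for Rela (from -0.23 to 0.33) and Relb (from -0.62 to 0.050). Tnf and, in PSC4, Icam1 gave no value with at least 10 counts in every library, Tnf none without Gem-PSC-SU replicate 2 and none in the fit of both lines.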
